A study of Mus musculus with 10 samples.

Results

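The SoxB genes are Sox1, Sox2, Sox3, Sox14 and Sox21, and their chromatin was followed here by ATAC-seq, in which a transposase cuts open DNA and the cut ends are counted. Members were the open regions whose nearest protein-coding gene span, within 50 kb, was one of these 5 genes. That rule gave 80 of the 246799 regions counted in the series. The farthest members were Sox3 region 9 at 46996 bp (mean 0.464 CPM) and Sox1 region 21 at 46277 bp (3.34 CPM), and the nearest regions outside lay 51984 bp from Sox3 (1.25 CPM) and 52383 bp from Sox1 (0.745 CPM). Regions are numbered along the chromosome within each gene. Beside them stand the motifs whose name starts with Sox in the deposited motif tables. A region is tied to a gene only by its position, which says nothing of its action, and accessibility is not expression.

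All libraries came from ES-Bruce4, a C57BL/6 mouse embryonic stem cell line kept on mouse embryo fibroblasts and depleted of these feeders before plating. Every culture started in N2B27 medium with bFgf at 10 ng/ml, and CHIR99021, an activator of Wnt signalling, was supplied at 5 µM from day 2. Cells were taken on day 2 (labelled ES-derived epiblast stem cells), day 3, day 6 and day 7 (all labelled as neuromesodermal progenitors), with a further day 7 group that had human Gdf11 at 50 ng/ml for 24 h from day 6. Gdf11 is a ligand of the TGF-beta family. Each of the 5 groups had 2 libraries, which gives 10 in all. All are labelled wild type, and all groups come from this single line. Whether both libraries of a group stem from separate cultures is not given in the labels, so p-values measure the spread between these libraries, which may be technical.

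SoxB proteins bind DNA through an HMG box, which recognises a short core of the form CATTGT or CTTTGT and bends the helix. Sox1, Sox2 and Sox3 act mainly as activators, keep neural progenitors undifferentiated and usually bind beside a partner such as a POU factor. Sox2 together with Oct4 (Pou5f1) also maintains pluripotent cells. Sox14 and Sox21 act mainly as repressors, and Sox21 opposes the activators as neural progenitors move toward differentiation. In the caudal embryo, cells that carry both Sox2 and T are the neuromesodermal progenitors, and Sox2 marks their neural descendants.

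Library totals over all regions ran from 7150334 to 12335735 counts, of which 9.25 to 13.4% fell on mitochondrial regions. Values are CPM, the counts of a region scaled to a common library size with TMM factors, and a gene sum adds all regions of that gene. Among the marker lists, the pluripotent and epiblast sum was highest on day 2 (579.7 ± 28.1 CPM, SD, n = 2) and lay at 402.0 ± 16.6 on day 3. The caudal epiblast and neuromesodermal progenitor sum went from 233.3 ± 6.93 on day 2 to 520.8 ± 6.43 on day 3. No marker gene of the 6 lists stood at 0 in these sums, those of endoderm, neural crest and feeder fibroblasts included.

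The 4 SoxB promoters held by the RefSeq table (GRCm38.p6, the patch of mm10) are shown because each overlaps the accessible region at its gene's start, and those regions differed in whether they changed. Each line gives the 250 bases before the annotated start, 5′ to 3′ on the gene's strand. Capitals mark a match to CTTTGT (on the other strand ACAAAG), and Sox3 was not matched in the table.

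Sox1, chr8:12395269-12395518, plus strand: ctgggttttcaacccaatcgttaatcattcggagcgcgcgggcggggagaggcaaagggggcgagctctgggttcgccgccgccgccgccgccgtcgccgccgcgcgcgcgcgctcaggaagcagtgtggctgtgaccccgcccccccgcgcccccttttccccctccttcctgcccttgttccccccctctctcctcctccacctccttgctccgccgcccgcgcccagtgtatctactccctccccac
Sox2, chr3:34649745-34649994, plus strand: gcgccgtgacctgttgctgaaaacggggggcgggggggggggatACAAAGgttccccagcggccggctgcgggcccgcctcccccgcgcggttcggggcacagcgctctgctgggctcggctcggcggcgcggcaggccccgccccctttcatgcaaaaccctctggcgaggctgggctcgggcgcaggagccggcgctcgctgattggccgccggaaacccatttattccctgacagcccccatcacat
Sox14, chr9:99876171-99876420, minus strand: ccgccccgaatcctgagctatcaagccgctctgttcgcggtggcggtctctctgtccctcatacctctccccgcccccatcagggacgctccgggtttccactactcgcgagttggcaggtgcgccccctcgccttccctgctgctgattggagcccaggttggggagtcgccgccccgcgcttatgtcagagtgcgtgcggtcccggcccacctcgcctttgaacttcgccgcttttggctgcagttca
Sox21, chr14:118237031-118237280, minus strand: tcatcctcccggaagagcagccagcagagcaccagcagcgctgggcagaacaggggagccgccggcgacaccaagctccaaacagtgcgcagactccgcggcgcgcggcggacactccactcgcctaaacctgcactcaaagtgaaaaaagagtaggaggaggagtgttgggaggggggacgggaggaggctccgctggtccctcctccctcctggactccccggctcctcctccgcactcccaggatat

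All 4 windows were rich in G and C, with 71.2% for Sox1, 72.0% for Sox2, 65.6% for Sox14 and 65.2% for Sox21. Both strands of the window from 250 bases before to 50 after each start were searched for 4 motifs. CTTTGT was found in Sox2, with its first base 206 bases before the start, and 18.7% of the 32851 promoters in the table hold it. The octamer ATGCAAAT, the element bound by POU factors, was found in Sox1 at 19 bases after the start (gcgccATGCAAATcaccg), and 1.74% of promoters hold it. CATTGT, held by 12.6% of promoters, and the Lef and Tcf core CTTTGAT, held by 3.73%, were not among the letters of any of the 4 windows. A match is a description of the letters and not evidence of binding.

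Across the 5 loci the sums moved in unlike ways, and the 3 loci that rose by day 7 without Gdf11 were lower with it. Both comparisons use the same untreated day 7 libraries, so a high level in those libraries enters both. Sox1 and Sox14 lost accessibility early, Sox1 from day 2 to day 3 and Sox14 from day 3 to day 6. Sox21 rose from day 3 to day 6 and again to day 7. Sox2 was called only in the comparisons that involve untreated day 7, and Sox3 in none of the 5 comparisons.

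**Figure D1:**
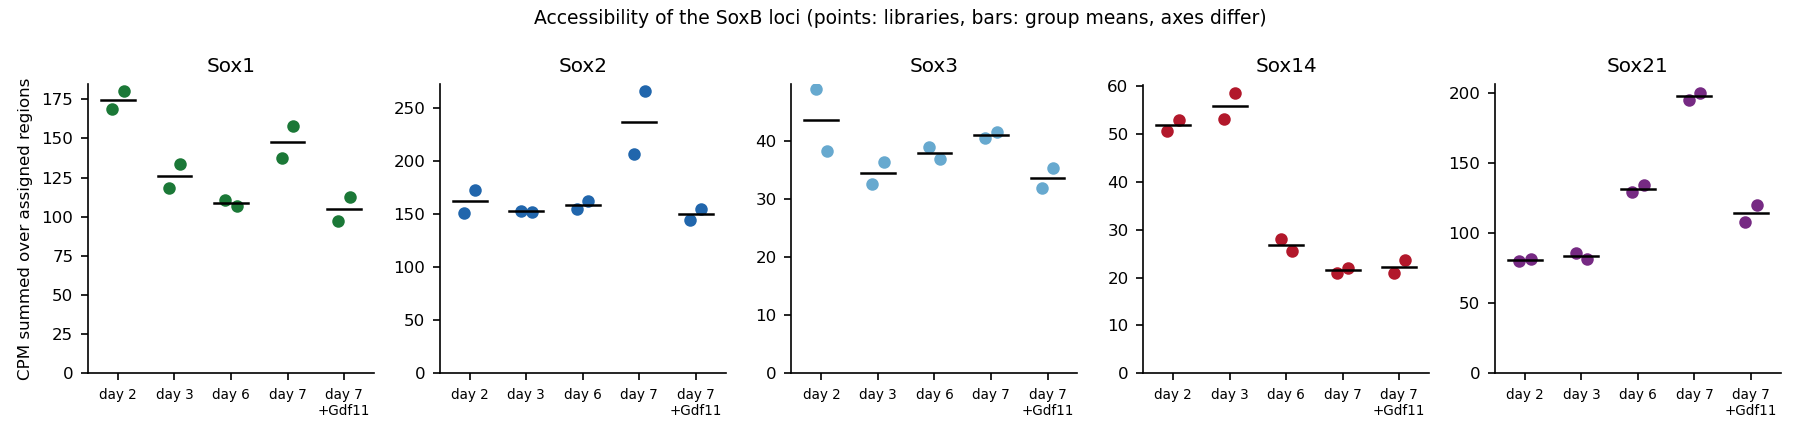
Summed accessibility (CPM, y axis from 0) of the regions assigned to each SoxB gene in each group (x axis), with 2 libraries as points and their mean as a bar. The day 7 libraries stand above the day 6 and Gdf11 libraries for Sox1, Sox2 and Sox21, and Sox14 is high only on days 2 and 3.

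Sox1, the activator whose expression marks committed neural precursors, had 21 regions around its span at chr8:12395519-12399555, of which 18 passed the filter on low counts. Its sum was 168.5 and 180.3 CPM in the day 2 libraries, 118.7 and 133.9 on day 3, and 110.7 and 106.9 on day 6. It was 137.7 and 157.9 on day 7 and 97.2 and 112.8 with Gdf11. Day 2 was thus the highest group and day 7 the next, while the ranges of day 6 and Gdf11 overlapped.

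The Sox1 sum fell by 0.47 ± 0.094 (log2, SE) from day 2 to day 3, a 1.38-fold lower level (edgeR quasi-likelihood test, adjusted p = 0.000378). It was the only 1 of the 5 sums called there, where 22.7% of the 19040 genes tested were called in either direction. The change from day 3 to day 6 was -0.21 ± 0.095 (adjusted p = 0.12). The Sox1 sum then rose from day 6 to day 7 by 0.44 ± 0.095, or 1.35-fold (adjusted p = 0.00417). Without the second day 7 library this rise was 0.37, with an adjusted p = 0.113. With Gdf11 it was lower than untreated day 7 by -0.49 ± 0.095 (adjusted p = 0.000498). Over regions within 10 kb alone the Sox1 changes to day 3 and to day 7 were -0.19 (adjusted p = 0.255) and 0.27 (adjusted p = 0.219), while the Gdf11 difference was -0.46 (adjusted p = 0.00957).

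Sox1 region 7, which covers the start of the gene (chr8:12394944-12395973), held a peak in all 10 libraries and was called in none of the 5 comparisons. It read 43.0 and 42.9 CPM on day 2, 46.0 and 58.6 on day 3, 37.0 and 44.6 on day 6, 47.8 and 57.7 on day 7, and 32.6 and 48.4 with Gdf11. The losses at Sox1 on day 3 lay elsewhere, in 5 of the 18 regions tested, with none higher, where 13.2% of all regions were called. Of all 173175 regions tested at that step, 15282 rose and 7539 fell. Region 20, at 39478 bp past the gene's end (chr8:12439033-12439454), read 16.1 and 16.3 on day 2 against 8.24 and 5.48 on day 3 (log2 change -1.21 ± 0.26, adjusted p = 0.000586). It then stayed between 4.31 and 6.67 in all later libraries. Region 6, at 3555 bp before the gene (chr8:12391608-12391964), went from 17.7 and 19.1 to 9.85 and 8.23 (-1.01 ± 0.24, adjusted p = 0.00162). Region 9, at 1270 bp past the end, fell as well (-0.73 ± 0.20, adjusted p = 0.00771), a call that was lost without the second day 2 library (-0.64, adjusted p = 0.0874) or the second day 3 library (-0.67, adjusted p = 0.0664).

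A different course was seen at Sox1 region 15, 30230 bp past the gene's end (chr8:12429785-12430688). It read 38.8 and 39.0 CPM on day 2, 15.5 and 16.2 on day 3, 23.2 and 16.8 on day 6, 39.9 and 51.8 on day 7, and 21.9 and 24.4 with Gdf11. It was thus high on day 2, low on days 3 and 6, and high again on day 7, where its libraries did not overlap those of day 6 or Gdf11. The changes were -1.30 ± 0.18 to day 3 (adjusted p = 1.91e-07), 1.17 ± 0.18 from day 6 to day 7 (adjusted p = 2.47e-05) and -0.98 ± 0.17 with Gdf11 (adjusted p = 0.00013). All 3 calls held in each alternative run. It was the only Sox1 region called from day 6 to day 7, and the only one with Gdf11. Region 8, over the end of the gene, was called in no comparison and stayed between 0.941 and 4.55.

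Sox2, the activator shared by pluripotent cells and neural progenitors, had 30 regions around its span at chr3:34649995-34652461, all of which passed the filter. Its sum read 151.6 and 173.2 CPM on day 2, 153.2 and 152.4 on day 3, and 155.5 and 162.8 on day 6. It was 207.1 and 266.5 on day 7 and 144.2 and 155.5 with Gdf11. Only the day 7 libraries stood apart from the rest, and they also differed most from each other (SD 42.0).

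The changes of the Sox2 sum were -0.09 ± 0.096 to day 3 (adjusted p = 0.556) and 0.06 ± 0.095 to day 6 (adjusted p = 0.726). From day 6 to day 7 it rose by 0.57 ± 0.094, or 1.48-fold (adjusted p = 0.000141). At that step 3 of the 5 SoxB sums rose and none fell, where 3.58% of all genes rose and 4.25% were called. With Gdf11 the Sox2 sum was lower than untreated day 7 by -0.66 ± 0.094, a 1.58-fold lower level (adjusted p = 7.13e-06). Over Sox2 regions within 10 kb the day 7 change was 0.17 (adjusted p = 0.443), and the Gdf11 difference was called there too (-0.37, adjusted p = 0.0325).

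Beneath the sum of Sox2, which was not called from day 2 to day 3, single regions changed in both directions. Of its 30 regions, 4 rose and 4 fell, and 22 were not called. Over all 71 SoxB regions tested, 4 rose and 11 fell, which is 21.1%, where 13.2% of all regions were called (15282 higher and 7539 lower of 173175). Region 11, at 870 bp before the gene (chr3:34648827-34649125), went from 13.2 and 16.0 CPM on day 2 to 4.59 and 3.18 on day 3 (-1.87 ± 0.30, adjusted p = 5.68e-06) and lay between 3.12 and 7.07 in all later libraries. Region 20, at 12742 bp past the gene's end (chr3:34665203-34665541), went the other way, from 4.39 and 3.66 to 11.1 and 11.8 (2.82-fold, adjusted p = 3.45e-05). Region 15, inside the gene, fell from 9.09 and 6.93 to 2.89 and 3.46 (-1.36 ± 0.34, adjusted p = 0.0034). That call was lost without the first day 2 library (-1.15, adjusted p = 0.0871) or the first day 3 library (-1.25, adjusted p = 0.0709).

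Region 13, over the Sox2 start (chr3:34649568-34650292), contains the promoter printed above. It held a peak in all 10 libraries and was called in no comparison. Its levels ran from 22.0 CPM in a day 2 library to 30.9 in a day 3 library. Its libraries on day 7, at 29.6 and 30.8, were close to those of day 6, at 27.3 and 29.8, with a change of 0.08 ± 0.17. Region 14, inside the gene, was also called in no comparison.

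The single Sox2 regions called against untreated day 7 lay downstream of the gene. Between days 6 and 7, 4 of the 30 Sox2 regions rose and none fell, where 0.974% of all regions rose. With Gdf11, 4 were lower and none higher, where 2.65% of all regions were lower. The comparisons share the day 7 libraries, and the values of regions 20, 22, 24 and 27, which lie between 12742 and 26311 bp past the gene's end, are given side by side below.

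Region 27 (chr3:34678772-34679203), at 26311 bp, read 3.87 and 3.53 CPM on day 2, 3.06 and 4.91 on day 3, 7.99 and 7.93 on day 6, 16.3 and 19.1 on day 7, and 6.33 and 6.46 with Gdf11. It rose at each step after day 3 and was lower with Gdf11 than on either day 6 or day 7 in these libraries. The changes were 1.05 ± 0.29 from day 3 to day 6 (adjusted p = 0.00777), 1.15 ± 0.25 to day 7 (adjusted p = 0.00667) and -1.46 ± 0.26 with Gdf11 (adjusted p = 9.86e-05). The Gdf11 call held in each alternative. The day 6 rise was lost without the first day 3 library (0.70, adjusted p = 0.268) or the first day 6 library (1.06, adjusted p = 0.0577). The day 7 rise was lost without the first (1.16, adjusted p = 0.0867) or second (1.17, adjusted p = 0.0767) day 6 library or the second day 7 library (1.06, adjusted p = 0.144), and with cyclic loess scaling and limma (1.09, adjusted p = 0.128).

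Region 24 (chr3:34668375-34668815), at 15914 bp, was already open on day 2. It read 29.0 and 33.7 CPM there, 33.7 and 31.9 on day 3, 18.5 and 22.8 on day 6, 28.3 and 40.1 on day 7, and 14.9 and 18.1 with Gdf11. Days 2, 3 and 7 were high, and day 6 and Gdf11 were low without overlap with day 7. The changes were -0.68 ± 0.18 to day 6 (adjusted p = 0.00589), 0.72 ± 0.18 to day 7 (adjusted p = 0.0262) and -1.04 ± 0.18 with Gdf11 (adjusted p = 0.000114). The first of these was lost without the first day 6 library (-0.51, adjusted p = 0.19). The day 7 rise was lost without that library (0.58, adjusted p = 0.328) or the second day 7 library (0.49, adjusted p = 0.58), with scaling by library totals (0.62, adjusted p = 0.0507) and with cyclic loess (0.57, adjusted p = 0.224). The Gdf11 call held in each alternative.

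Region 20 read 11.7 and 9.03 CPM on day 6, 16.9 and 27.2 on day 7, and 12.7 and 13.1 with Gdf11. The rise was 1.05 ± 0.23 (adjusted p = 0.00554) and the Gdf11 difference -0.75 ± 0.22 (adjusted p = 0.0391). Without the second day 7 library these were 0.72 (adjusted p = 0.445) and -0.41 (adjusted p = 0.662). The rise was also lost without the second day 6 library (0.92, adjusted p = 0.144), and the Gdf11 call without the first (-0.75, adjusted p = 0.198) or second (-0.81, adjusted p = 0.0976) Gdf11 library. Cyclic loess also ended both calls (0.97, adjusted p = 0.128, and -0.56, adjusted p = 0.35). The Gdf11 call was lost as well with library totals (-0.59, adjusted p = 0.141), the stricter peak threshold (-0.65, adjusted p = 0.0616) and DESeq2 (-0.76, adjusted p = 0.107).

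Region 22 (chr3:34666828-34667151), chosen after its values were seen, read 0.418 and 2.35 on day 2, 2.72 and 2.31 on day 3, 8.55 and 8.21 on day 6, 16.2 and 22.2 on day 7, and 8.10 and 12.2 with Gdf11. Its rise of 1.71 ± 0.34 from day 3 to day 6 (adjusted p = 0.00013) held in each alternative. Its day 7 rise of 1.18 ± 0.27 (adjusted p = 0.012) was lost without the second day 6 library (1.18, adjusted p = 0.0576) or the second day 7 library (0.98, adjusted p = 0.225), and with cyclic loess (adjusted p = 0.425). Its Gdf11 difference of -0.92 ± 0.27 (adjusted p = 0.0357) was lost without the second day 7 library (-0.71, adjusted p = 0.364) or the first Gdf11 library (-0.67, adjusted p = 0.397). That difference was also not called with library totals (-0.76, adjusted p = 0.11), the stricter peak threshold (-0.83, adjusted p = 0.0553), cyclic loess (-0.84, adjusted p = 0.505) or DESeq2 (adjusted p = 0.131).

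**Figure D2:**
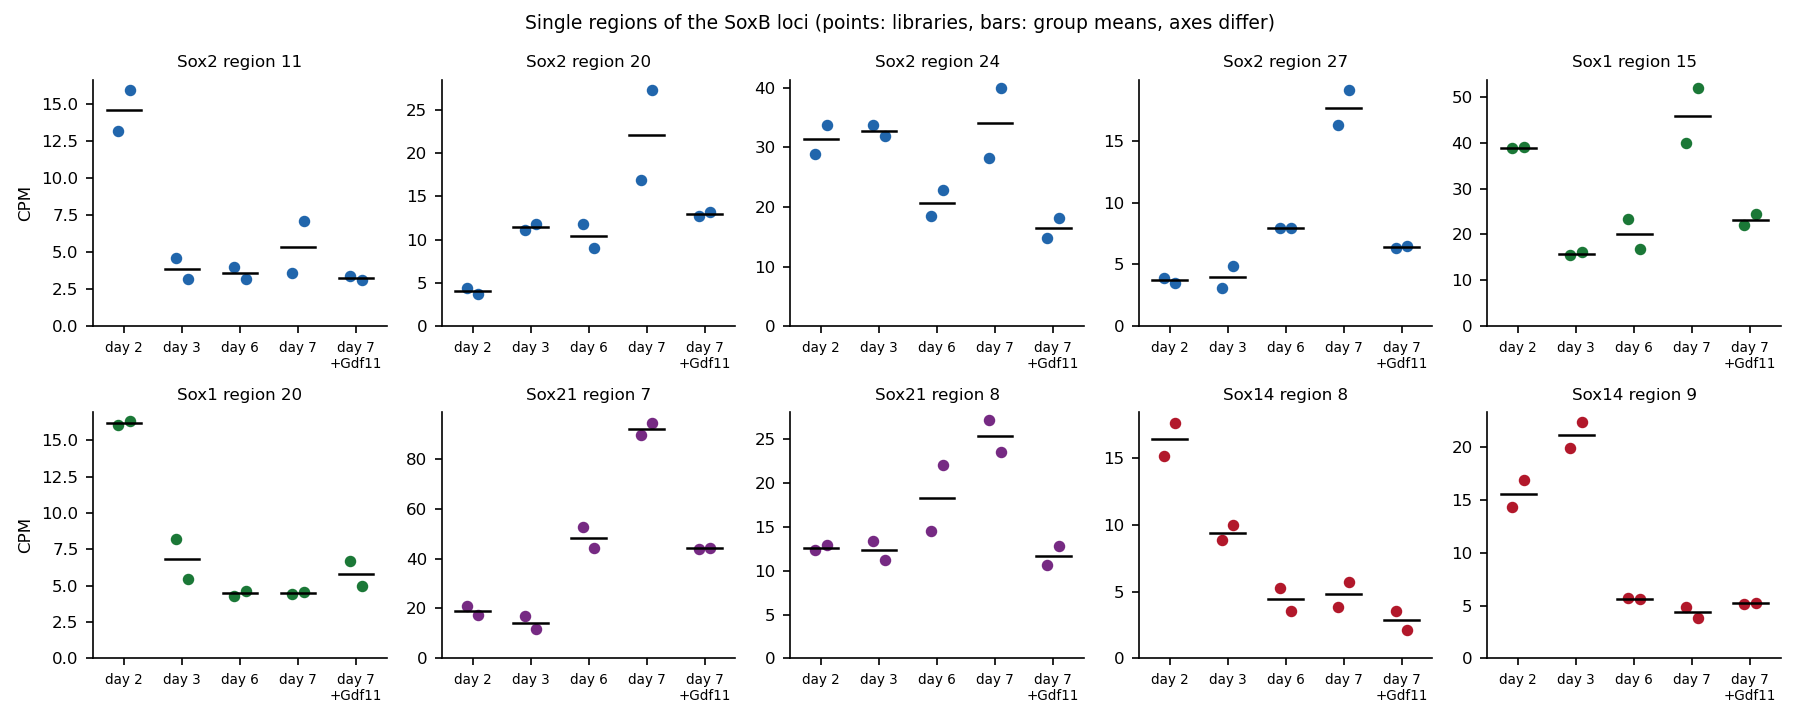
Accessibility (CPM, y axis from 0) of 10 single regions of the SoxB loci by group (x axis), with 2 libraries as points and the mean as a bar. Sox2 regions 20, 24 and 27, Sox1 region 15 and Sox21 regions 7 and 8 are highest or near highest on day 7 and lower with Gdf11, while Sox2 region 11, Sox1 region 20 and Sox14 regions 8 and 9 are low from day 6 on.

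Sox3, the X-linked activator, had 9 regions around its span at chrX:60891366-60893430, of which 6 passed the filter. Its sum read 48.8 and 38.3 CPM on day 2, 32.6 and 36.4 on day 3, 38.9 and 36.8 on day 6, 40.5 and 41.5 on day 7, and 31.9 and 35.3 with Gdf11. The means spanned only from 33.6 to 43.6 CPM, and no comparison was called. The largest change, to day 3, was -0.35 ± 0.14 (adjusted p = 0.061), and it passed the threshold in 7 of 13 alternatives, one of them without the second day 2 library (-0.56, adjusted p = 0.00917). The difference with Gdf11 was -0.29 ± 0.14 (adjusted p = 0.161).

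Most of the Sox3 signal came from region 6 (chrX:60893291-60894507), which overlaps the higher-coordinate end of the gene and held 60.6 ± 5.49% of the locus counts on day 2 and 73.2 ± 3.28% on day 7 (SD, n = 2). Its levels ran from 22.6 CPM in a day 3 library to 31.4 in a day 7 library, and it was called in no comparison. Region 1, at 22631 bp toward lower coordinates, read 6.59 and 3.27 on day 2 and 0.934 and 2.02 on day 3 (-1.82 ± 0.52, adjusted p = 0.0126). That call was lost without the first day 2 library (-1.21, adjusted p = 0.332) or the first day 3 library (-1.33, adjusted p = 0.215), with cyclic loess (adjusted p = 0.0691) and with DESeq2 (adjusted p = 0.0581). Region 5, inside the gene, read 1.70 and 0.866 on day 3 and 4.55 and 2.46 on day 6 (1.41 ± 0.47, adjusted p = 0.031), and was lost without the second day 3 library (1.07, adjusted p = 0.264) or the first day 6 library (0.88, adjusted p = 0.5), with cyclic loess (adjusted p = 0.0562) and with DESeq2 (adjusted p = 0.0931).

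Sox14, a repressor expressed in particular neuron types of brain and spinal cord, had 9 regions around its span at chr9:99874106-99876170, of which 7 passed the filter. Its sum read 50.7 and 53.0 CPM on day 2, 53.2 and 58.5 on day 3, 28.0 and 25.6 on day 6, 21.1 and 21.9 on day 7, and 20.9 and 23.7 with Gdf11. The early libraries lay above 50 CPM and the later ones below 30 with no overlap. From day 3 to day 6 it fell by 1.05 ± 0.13, a 2.07-fold lower level (adjusted p = 3.29e-07). Together with Sox21, which rose, it made 2 of 5 sums called at that step, where 20.2% of all genes were called. The change to day 7 was -0.33 ± 0.14 (adjusted p = 0.212), and that with Gdf11 was 0.05 ± 0.15 (adjusted p = 0.852).

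Among the 4 SoxB genes whose promoters are printed above, Sox14 was the only one whose region over the gene start was called. The start of Sox3 was not located, and of its regions on the gene, region 5 was called and region 6 was not. Region 9 (chr9:99876061-99876419) read 14.3 and 16.9 CPM on day 2, 19.9 and 22.4 on day 3, 5.67 and 5.61 on day 6, 4.86 and 3.83 on day 7, and 5.15 and 5.27 with Gdf11. It kept a called peak in all 10 libraries at these lower levels. The fall to day 6 was -1.90 ± 0.24, a 3.72-fold lower level (adjusted p = 1.9e-08), and held in each alternative. In the authors' deposited peak lists the fold enrichment of its peak was 9.82 and 8.99 on day 3 and 5.24 and 5.42 on day 6.

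Both named regions past the end of Sox14 fell as well. Region 8, at 1291 bp, went from 15.2 and 17.6 CPM on day 2 to 8.83 and 9.96 on day 3 (-0.81 ± 0.26, adjusted p = 0.0288) and to 5.27 and 3.56 on day 6 (-1.04 ± 0.29, adjusted p = 0.00776). The first step was lost without the second day 2 library (-0.75, adjusted p = 0.138), the first day 3 library (-0.75, adjusted p = 0.179) or the second (-0.90, adjusted p = 0.0609), and the later step without the second day 6 library (-0.82, adjusted p = 0.128). Cyclic loess (adjusted p = 0.101) and DESeq2 (adjusted p = 0.0723) ended the first step as well. Region 7, at 2017 bp, went from 11.0 and 14.4 on day 3 to 7.27 and 7.80 on day 6 (-0.74 ± 0.26, adjusted p = 0.042). Without the second day 3 library (-0.56, adjusted p = 0.336), or the first (-0.67, adjusted p = 0.281) or second (-0.79, adjusted p = 0.127) day 6 library, it was not called, nor with cyclic loess (adjusted p = 0.0817) or DESeq2 (adjusted p = 0.108). Regions 7, 8 and 9 made up all the calls at Sox14 from day 3 to day 6, 3 of 7 tested, where 15.2% of all regions were called.

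Sox21, the repressor that counters the SoxB activators in neural progenitors, had 11 regions around its span at chr14:118233233-118237030, of which 10 passed the filter. Its sum read 80.2 and 81.6 CPM on day 2, 85.9 and 81.7 on day 3, 128.9 and 133.9 on day 6, 194.7 and 199.7 on day 7, and 108.0 and 120.0 with Gdf11. The group means rose in the order day 2, day 3, Gdf11, day 6 and day 7, with no overlap between neighbours. Days 2 and 3 were parted only by 81.6 against 81.7 CPM, and neither that step nor Gdf11 against day 6 was called. The share of all genes without such overlap was not computed. Its changes were 0.05 ± 0.094 to day 3 (adjusted p = 0.722), 0.65 ± 0.091 to day 6 (adjusted p = 1.77e-06) and 0.59 ± 0.088 to day 7 (adjusted p = 3.65e-05). With Gdf11 it was lower than untreated day 7 by -0.79 ± 0.088, a 1.73-fold lower level (adjusted p = 7.08e-08). The last 3 of these calls held in each alternative, which included leaving out each library of the groups compared.

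The largest part of the Sox21 rise came from region 7 (chr14:118230157-118230837), at 2396 bp past the gene's end. It read 20.8 and 17.5 CPM on day 2, 16.8 and 11.7 on day 3, 52.5 and 44.2 on day 6, 89.6 and 94.6 on day 7, and 44.0 and 44.2 with Gdf11. The day 7 libraries stood apart from all others, and the Gdf11 libraries lay at the low edge of the day 6 range. The changes were 1.74 ± 0.17 to day 6 (adjusted p = 1.08e-11), 0.92 ± 0.15 to day 7 (adjusted p = 0.000155) and -1.06 ± 0.15 with Gdf11 (adjusted p = 3.48e-06). With cyclic loess the day 7 rise of region 7 was 0.78 and not called (adjusted p = 0.105).

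The neighbouring regions 8 and 9 of Sox21 moved in part with region 7. Region 9, at 976 bp past the end, read 9.94 and 9.38 CPM on day 3 and 18.4 and 21.3 on day 6 (1.03 ± 0.21, adjusted p = 0.000297). It read 27.0 and 36.4 on day 7 and 13.9 and 19.1 with Gdf11 (-0.94 ± 0.20, adjusted p = 0.00149), a difference not called without the second day 7 library (-0.75, adjusted p = 0.117) or the first Gdf11 library (-0.75, adjusted p = 0.106), nor with cyclic loess (-0.74, adjusted p = 0.0911). Region 8, at 1907 bp, read 14.5 and 22.0 on day 6, 27.3 and 23.6 on day 7, and 10.6 and 12.8 with Gdf11. Its Gdf11 difference was -1.13 ± 0.21 (adjusted p = 0.000243) and its day 7 change 0.50 ± 0.20 (adjusted p = 0.294). Region 3, at 23251 bp, rose from 1.19 and 0.289 on day 3 to 2.88 and 3.28 on day 6 (1.88 ± 0.52, adjusted p = 0.00815), but not without the second day 3 library (1.34, adjusted p = 0.161).

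On the Sox21 gene itself nothing was called. Region 11, over the start (chr14:118236568-118237327), ran from 21.7 CPM in a day 2 library to 30.7 in a day 3 library and read 29.4 and 30.0 on day 7. Region 10 stayed between 5.33 and 9.81. The share of the Sox21 locus counts held by region 11 went from 36.1 ± 2.13% on day 3 to 15.1 ± 0.047% on day 7 and was 22.6 ± 0.37% with Gdf11 (SD, n = 2).

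**Figure D3:**
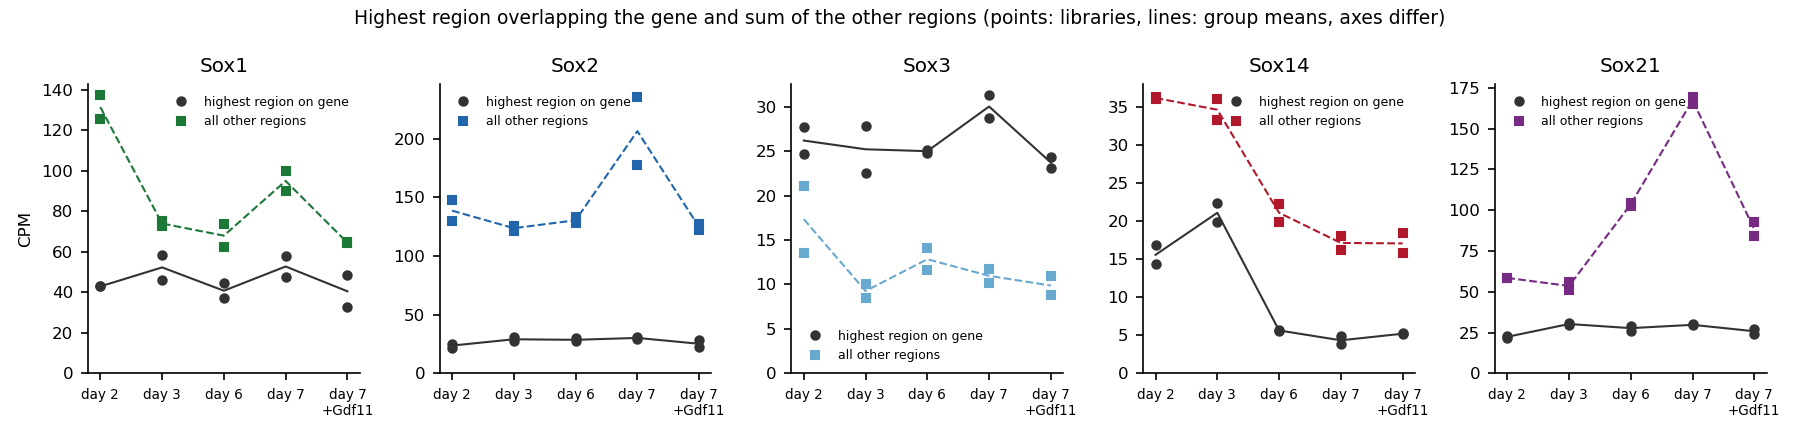
For each SoxB gene, CPM (y axis from 0) of the highest region overlapping the gene (circles, solid line) and of all its other regions together (squares, broken line) by group, with libraries as points and group means as lines. For Sox21 the region on the gene stays between 21.7 and 30.7 CPM while the others rise to 165.3 and 169.7 on day 7, and for Sox14 both lines fall.

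The Sox2 regions other than region 13 summed to 128.2 and 133.0 CPM on day 6, 177.5 and 235.7 on day 7, and 122.0 and 127.3 with Gdf11. Those of Sox1 other than region 7 went from 125.5 and 137.4 on day 2 to 72.6 and 75.3 on day 3. In each of the 5 comparisons between days or with Gdf11, the regions over the start of Sox1, Sox2 and Sox21 and region 6 of Sox3 were not called.

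From day 3 to day 6, 9 of the 71 SoxB regions rose and 5 fell, which is 19.7%, where 15.2% of all regions were called. From day 6 to day 7, 6 rose and none fell, or 8.45%, where 0.974% of all regions rose and 1.18% were called. With Gdf11 against untreated day 7, 8 were lower and none higher, or 11.3%, where 2.65% of all regions were lower and 3.73% were called. Both comparisons share the day 7 libraries. In all, 28 regions were called at least once and 43 never. The share of all regions called at least once was not computed, so this count is a description only.

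Leaving out single libraries moved the region counts. Without the first or the second day 3 library, 9 regions rather than 15 were called from day 2 to day 3, and without the first day 6 library 8 rather than 14 from day 3 to day 6. Between days 6 and 7 the count was 3 without the second day 6 library and 2 without the second day 7 library. With Gdf11 it was 5 without the second day 7 library or without the first Gdf11 library.

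**Figure D4:**
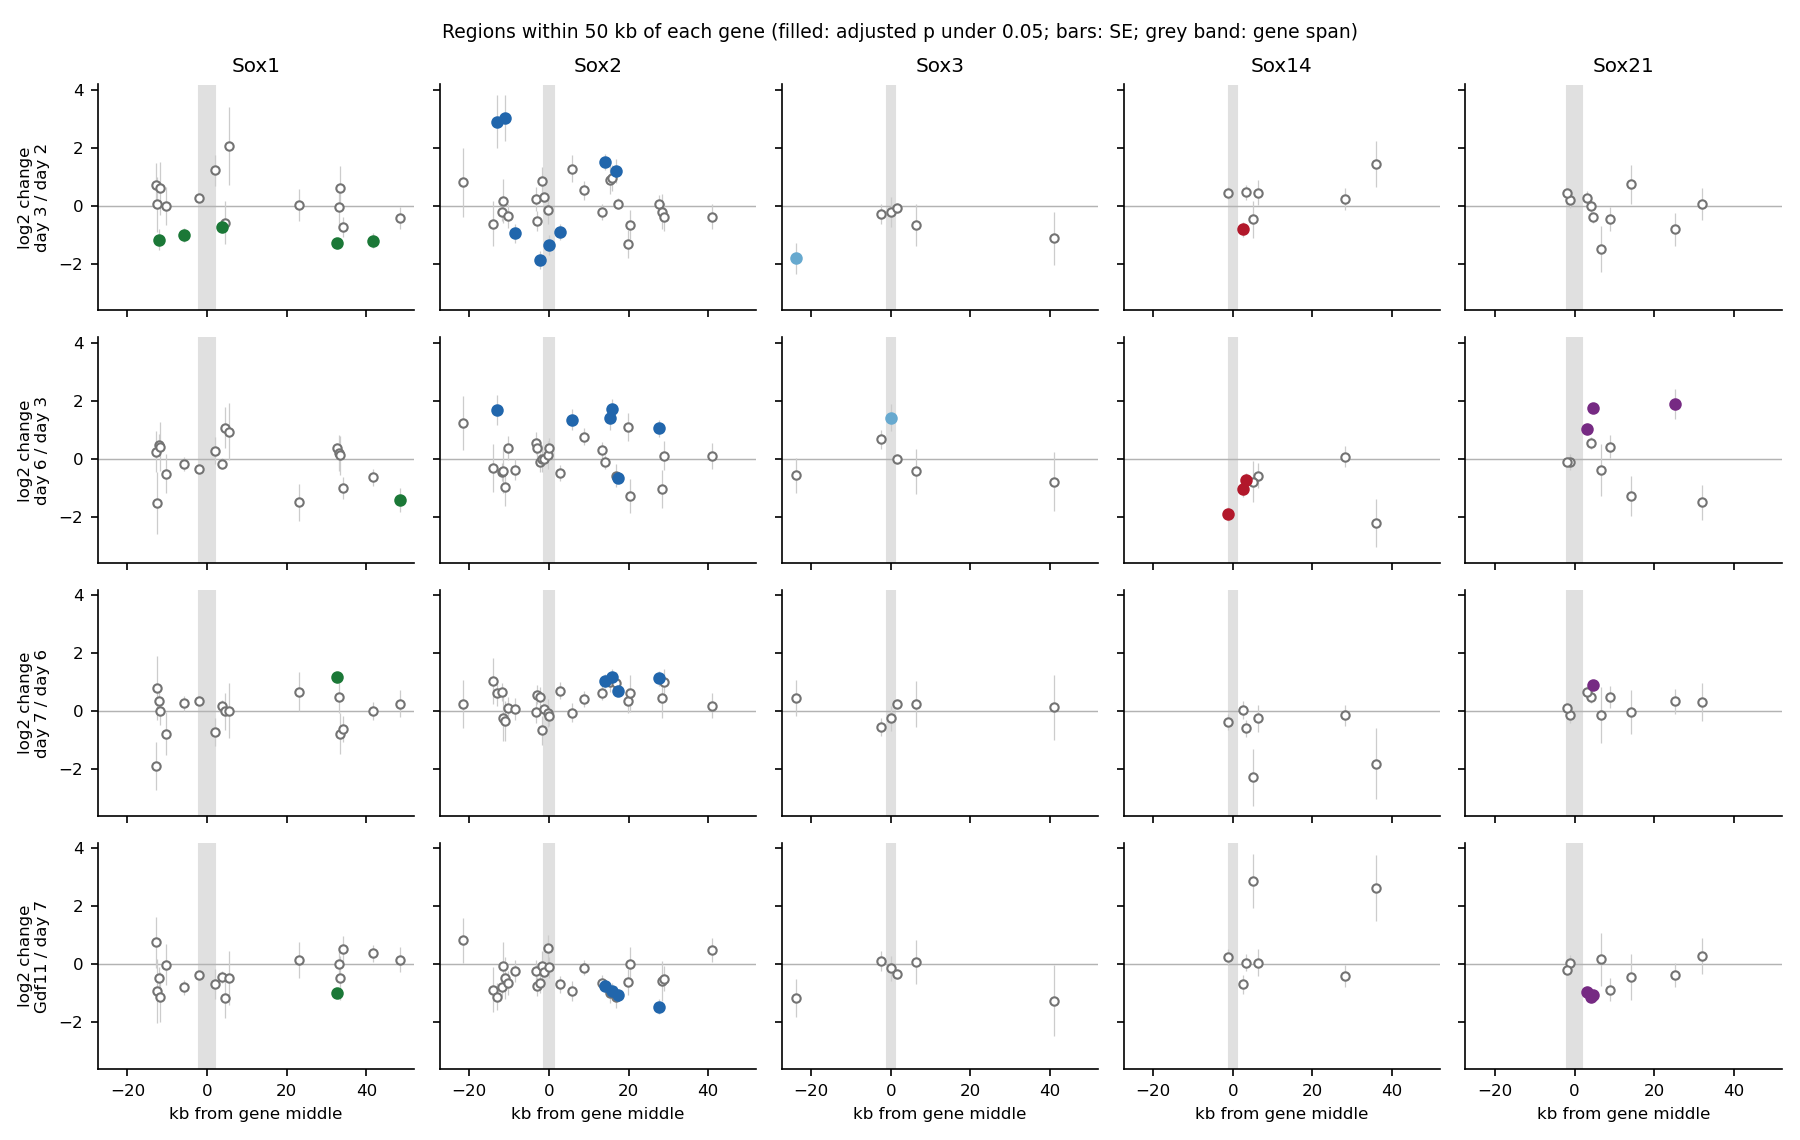
log2 change of each tested region (y axis, bars are SE) against its distance from the middle of the gene in kb (x axis, positive in the direction of transcription, and for Sox3 toward higher coordinates), with 1 column per gene and 1 row per comparison. Filled points had an adjusted p under 0.05, and the grey band is the gene. In the lower 2 rows the filled points of Sox1, Sox2 and Sox21 lie to the right of the gene. They are above 0 for day 7 against day 6 and below 0 for Gdf11 against day 7. Sox21 had no region wholly before its start, so its points off the gene could lie only on that side.

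After 24 h of Gdf11, the sums of Sox1, Sox2 and Sox21 lay closer to day 6 than to untreated day 7. Against untreated day 7, Sox1, Sox2 and Sox21 were lower, which is 3 of 5 sums with none higher, where 11.2% of all genes were lower and 13.3% were called. The median change over all genes in that comparison was -0.10, and 0.06 when libraries were scaled by their totals alone. Relative to that median the changes were -0.39 for Sox1, -0.56 for Sox2 and -0.69 for Sox21 with TMM, and -0.39, -0.55 and -0.69 with totals alone. The rise of these 3 sums to day 7 and their difference with Gdf11 rest on the same untreated day 7 libraries.

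Against day 6, 0 of the 5 sums were called with Gdf11 by edgeR, where 1.88% of all genes were called. At an unadjusted p under 0.05 edgeR gave 1 sum, Sox21, at -0.21 ± 0.089 (adjusted p = 0.266), while DESeq2 and limma each gave 0. Neither DESeq2 nor limma called a sum after adjustment. The remaining changes were -0.05 ± 0.095 for Sox1, -0.09 ± 0.095 for Sox2, -0.18 ± 0.14 for Sox3 and -0.27 ± 0.14 for Sox14. Of the 71 regions 0 were called, where 2.4% of all regions were, and edgeR, DESeq2 and limma each gave 3 at an unadjusted p under 0.05, all lower with Gdf11. Without the first day 6 library, Sox21 region 8 was called lower (-0.91 ± 0.26, adjusted p = 0.0495). A p that misses the threshold does not show that the levels were equal.

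Some lists of other cell types also differed between Gdf11 and untreated day 7, where 11.2% of all genes were lower and 13.3% were called. The presomitic mesoderm sum was 255.4 ± 18.7 CPM on day 7 and 172.2 ± 0.90 with Gdf11, with 3 of 6 genes lower and none higher. The caudal list had 5 of 9 genes lower, with sums of 401.5 ± 6.35 and 315.4 ± 8.34. None of the 6 endoderm and 4 neural crest genes was called, and 1 of 6 feeder fibroblast genes was lower, with library sums from 226.6 to 259.0 on day 7 and from 217.9 to 239.8 with Gdf11. In these bulk samples a change in the share of a cell type and a change in accessibility per cell cannot be told apart, and the part of either in the SoxB differences was not tested.

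The pathway around SoxB was described by 3 further lists. Of 18 neural progenitor genes, 11 rose and 1 fell from day 3 to day 6, where 20.2% of all genes were called. The list holds, for example, the Notch effector Hes5 and the proneural factor Neurog2. Its median log2 change was 0.31, against -0.02 over all genes. On day 7, 11 rose and none fell (median 0.44 against 0.05), where 3.58% of all genes rose. With Gdf11, 13 were lower and none higher (-0.62 against -0.10), where 11.2% of all genes were lower. Both comparisons share the untreated day 7 libraries. Against day 6, 3 were lower with Gdf11, led by Neurog2 (-0.70 ± 0.093, adjusted p = 2.57e-05), where 1.88% of all genes were called. With Gdf11, Neurog2 stood at 102.7 ± 9.55 CPM against 201.1 ± 7.13 on untreated day 7. Pax7, a factor of the dorsal neural tube, stood at 122.2 ± 3.51 against 220.6 ± 29.1.

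Of 12 partner factors of SoxB, 5 fell and none rose from day 2 to day 3, among them Otx2 (-0.65 ± 0.11), an anterior epiblast and neural factor, Pou3f1 (-0.65 ± 0.13), and Pou5f1 (-0.70 ± 0.16), the Oct4 partner of Sox2 in pluripotent cells. At that step 22.7% of all genes were called, and the median change was -0.00 over the list and over all genes. From day 3 to day 6, 5 fell, led by the pluripotency genes Zfp42 (-1.26 ± 0.13), Nanog (-0.61 ± 0.11) and Esrrb (-0.46 ± 0.10), and 3 rose, where 20.2% of all genes were called (median -0.16 against -0.02). On day 7 the neural POU factors Pou3f2 (0.45 ± 0.088) and Pou3f3 (0.34 ± 0.099) and the eye and neural tube factor Pax6 (0.35 ± 0.089) rose, and none fell, where 3.58% of all genes rose (median 0.06 against 0.05). With Gdf11, Pax6 (-0.54 ± 0.089), Pou3f2 (-0.46 ± 0.088) and Zic1 (-0.39 ± 0.10) were lower and 1 of the 12 was higher, where 13.3% of all genes were called (median 0.04 against -0.10). The higher one was Pou5f1 (0.54 ± 0.18, adjusted p = 0.0383).

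Among 14 tested Sox genes of other groups, 4 were lower with Gdf11 and none higher, where 11.2% of all genes were lower. The smallest p of these was at Sox13, a SoxD gene, with 84.5 ± 5.96 CPM against 144.4 ± 2.63 on day 7 (-0.78 ± 0.093, adjusted p = 3.11e-07). It was also lower than on day 6 (-0.44 ± 0.094, adjusted p = 0.00624). Sox5, also of group D, rose from 213.9 ± 7.90 on day 2 to 338.9 ± 27.0 on day 3 (0.67 ± 0.077, adjusted p = 3.94e-08). Medians of this list were 0.02, -0.04, 0.01 and -0.11 over the 4 successive comparisons to day 7 with Gdf11, beside -0.00, -0.02, 0.05 and -0.10 over all genes.

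Each locus was also set beside the other 9515 genes above median abundance, by Pearson correlation of log2 CPM over the 10 libraries, as a description. All genes share the same libraries and depths. Sox21 was most like Olfml3 (0.989), Ptprj (0.989) and Hax1 (0.988). Sox14 was most like Tc2n (0.985), Fah (0.984) and Irgm2 (0.983), and Sox2 most like Mvk (0.982), Mkrn1 (0.960) and Snx10 (0.959). Sox1 was most like Zswim4 (0.975), and Sox3, called in no comparison, like Slc35f1 (0.903). Between members the value was 0.756 for Sox2 and Sox21, 0.709 for Sox1 and Sox3, and -0.847 for Sox14 and Sox21.

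Motifs of Sox factors were read from the authors' deposited motif tables, which cover 414 known motifs, of which 8 are named for a Sox factor. The tables are named up and down for each pair of stages. Which stage is meant as higher, and how target regions were chosen, is not given in the sources used here. The deposited consensus holds CATTGT for Sox2, Sox3, Sox6, Sox10, Sox15 and Sox17, and CTTTGT for Sox3, Sox4, Sox9 and Sox10. Related motifs match the same sites, so the 8 are not independent.

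In the authors' deposited table named down for day 7 and Gdf11, Sox motifs took ranks 1 to 7 and 9 of 414 by p-value. The Sox2 motif was in 51.8% of target and 22.6% of background sequences there, which is 1502 of 2902 targets. The Sox3 motif was in 72.2% against 41.4%, and over the 8 motifs the ratio of target to background percent ran from 1.73 to 2.34. In the matching table named up, with 523 targets, the Sox2 motif was in 27.7% against 16.9%, its rank was 45, and the ratios ran from 1.29 to 1.64.

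A similar first place was held in the authors' deposited table named up for day 6 and day 7, where the 8 motifs had ranks between 1 and 9. The Sox3 motif was in 75.3% of 1257 targets against 45.2% of background, and the Sox2 motif in 53.7% against 25.0%. In the table named down for the same days, with only 154 targets, Sox6 ranked first with 60.4% against 34.3%, and Sox9 had rank 37 with 30.5% against 21.3%. Both tables of that pair thus list Sox motifs near the top.

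Earlier pairs gave Sox motifs in both directions in the authors' deposited tables. For day 2 and day 3 the Sox2 motif was in 38.6% of targets against 16.2% of background in the table named down (rank 2) and in 38.4% against 18.5% in that named up (rank 8). For day 3 and day 6 it was in 29.1% against 15.9% in the table named down (rank 13) and in 38.1% against 17.9% in that named up (rank 6). Background percents also differed between the tables. In all 8 of these tables each of the 8 motifs had a higher percent in targets than in background.

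Each pair also had an authors' deposited table named for joined peaks up, which held from 47 to 1618 targets. In that authors' deposited table for day 6 and day 7, Sox10 ranked first with 78.7% of 47 targets against 41.5%, and Sox2 was in 51.1% against 24.2%. In the authors' deposited table of joined peaks for day 7 and Gdf11, with 49 targets, Sox2 had rank 38 (32.7% against 17.8%). Sox4 had rank 229 there, with 18.4% against 17.8% in the authors' deposited table, a ratio of 1.03. For the earlier pairs the Sox2 motif had rank 10 between days 2 and 3 and rank 5 between days 3 and 6 in the authors' deposited tables of joined peaks.

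**Figure D5:**
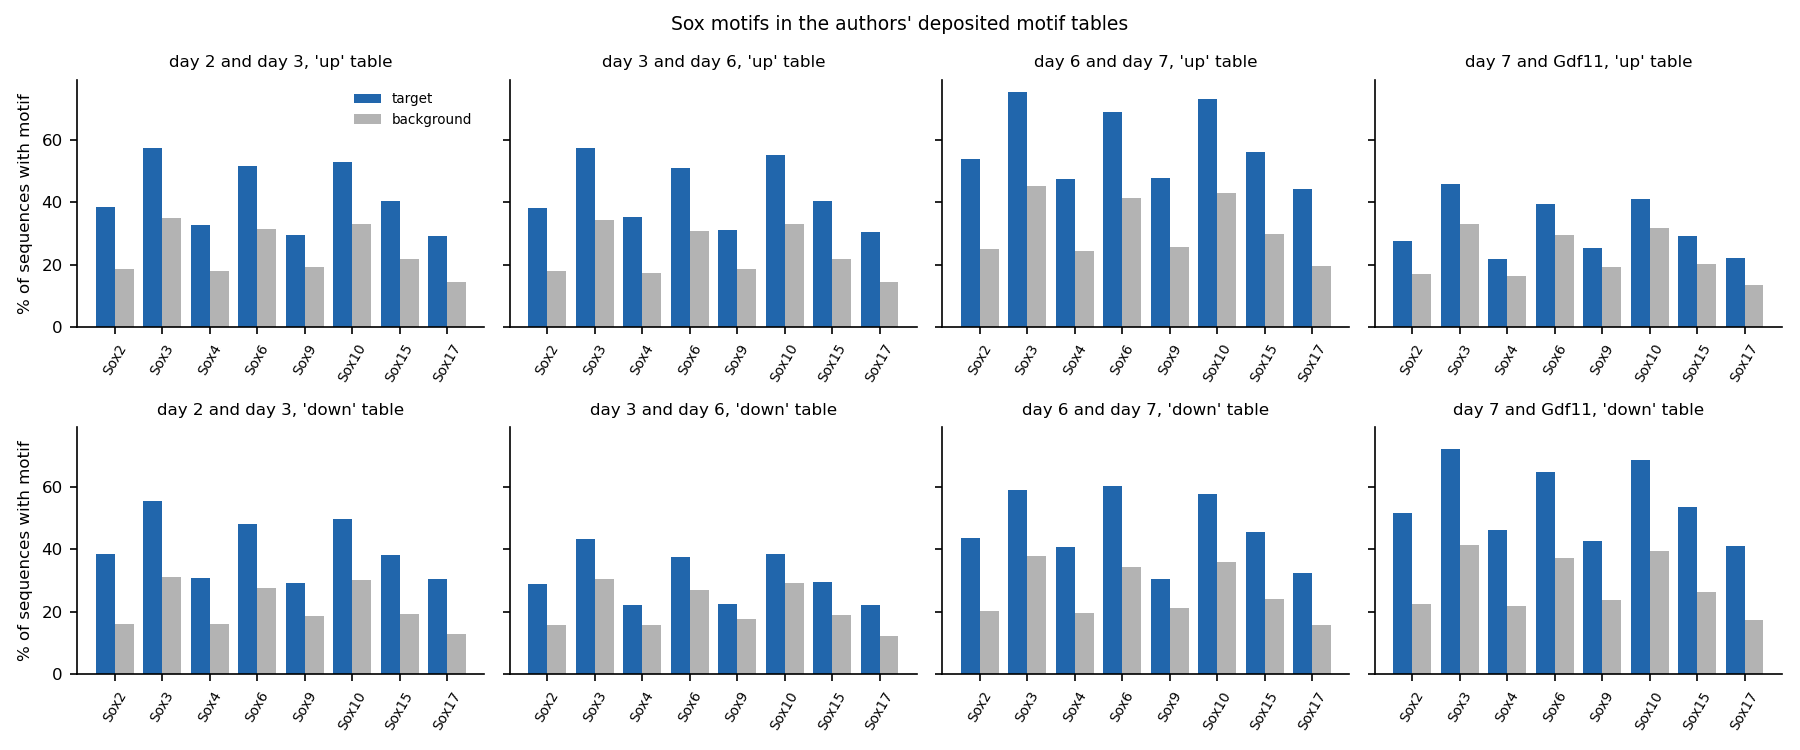
Percent of target sequences (blue) and background sequences (grey) that hold each of 8 Sox motifs (x axis) in the authors' deposited motif tables, for 4 pairs of stages (columns) and the tables named up and down (rows). The bars of the day 7 and Gdf11 pair differ most in the table named down, where the Sox3 motif reaches 72.2% against 41.4%.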

How the data were processed

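ATAC-seq of 10 mouse libraries in 5 groups of 2 was analysed from the deposited files. The deposited counts are raw whole-number counts per region and library, and the counter is not given in the sources used here. The deposited peak lists give each peak a fold enrichment (a ratio over the caller's background) and the −log10 of its q-value, per library. The deposited motif tables give percents of target and background sequences, made by the authors from targets whose choice is not stated. The submitters' processing notes list HOMER 4.10, bedtools, MACS2 2.1.1.20160309, SAMtools and HISAT2 2.1.0 with build mm10 and no role.

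The count tables carry no coordinates. The 10 peak lists were merged (bedtools 2.31.1) in character order of chromosomes, giving 246799 regions, as many as count rows, and in every library 0 regions with an own peak had a count of 0. Positions rest on that match. RefSeq spans of 21883 protein-coding genes (GRCm38.p6) took 190569 regions within 50 kb, a region in several spans going to the shortest.

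Regions (173175 tested) and gene sums (19040 of 19567 tested) were fitted over all 10 libraries by group in edgeR 4.0.16 (R 4.3.3) with filterByExpr, TMM factors and the two-sided quasi-likelihood F test. P-values were adjusted by Benjamini-Hochberg over all features of a comparison, with a threshold of 0.05. Common dispersions were 0.0402 (regions) and 0.00705 (genes). Printed CPM use TMM-scaled library sizes, and likeness used log2(CPM + 0.5). Counts were simulated from the mean levels and tested for day 3 against day 2, over 18881 genes and 160190 regions. Of changed genes, 62% of 1.5-fold and 98% of 2-fold changes were recovered. Of changed regions, 4% of 2-fold, 58% of 3-fold and 78% of 4-fold changes were recovered. Changed features were drawn only from those with higher mean counts, and all features had the common dispersion. At each fold only 50 genes and 50 regions were changed, a far smaller share than the 13.2% of regions called in the real comparison. Adjustment was thus stricter in the simulation, so these percents do not give the recovery in the real comparisons. Recovery among regions with few counts was not measured.

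Alternatives were RLE factors, library size only, cyclic loess with limma 3.58.1, DESeq2 1.42.0, no filter and the replicate number as a block. Each library was also left out, and a comparison counted only the runs that left out a library of its own groups. Gene sums were also taken over windows of 10 and 200 kb. A stricter alternative kept only regions with a peak of −log10 q of at least 5 in both libraries of a group. Named regions were, per gene, up to 4 called in any comparison with the smallest p, the one with the highest mean CPM and any on the gene. Likeness named the 3 most similar genes, and each list up to 3 genes per comparison with the smallest p. Members and lists were chosen with earlier results of these data known.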

Additional observations from a re-analysis of the deposited data

How the results depend on the processing

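With 2 libraries a group, single libraries decided many region calls: of 43 calls at SoxB regions 15 held in every alternative and 28 were lost in at least 1, and of 9 calls of sums 6 held, with no called value changing sign. The common dispersion was 0.0402 for regions and 0.00705 for sums, and the part of depth in the lost calls was not tested.

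The number of SoxB sums called from day 2 to day 3 (main 1) was 2 with RLE factors, library size only, no filter, the replicate block or the 200 kb window, 3 with cyclic loess and 0 with the 10 kb window, and from 1 to 2 without single libraries. From day 6 to day 7 (main 3) it was 1 with the 10 kb window and from 2 to 3 without single libraries. With cyclic loess it was 3 from day 3 to day 6 (main 2). With Gdf11 against untreated day 7 it was 3 in all 13 alternatives, and against day 6 it was 0 in all 13.

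The number of regions called from day 2 to day 3 (main 15) was 9 with DESeq2 and from 9 to 12 without single libraries. From day 3 to day 6 (main 14) it was 9 with cyclic loess and from 8 to 11 without single libraries. From day 6 to day 7 (main 6) it was 1 with cyclic loess and from 2 to 7 without single libraries. With Gdf11 against day 7 (main 8) it was 5 with cyclic loess and from 5 to 9 without single libraries, and against day 6 (main 0) from 0 to 1.

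Values of sums that were not called changed sign in some settings. With the 200 kb window, Sox2 (-0.081) and Sox3 (-0.13) from day 3 to day 6, Sox14 from day 6 to day 7 (0.0032) and Sox14 with Gdf11 against day 7 (-0.19) did so. With cyclic loess, Sox2 from day 3 to day 6 (-0.034) and Sox21 from day 2 to day 3 (-0.077) did. Sox14 with Gdf11 against day 7 was -0.15 under the stricter peak threshold and ran from -0.074 without the second Gdf11 library to 0.118 without the first. Sox21 to day 3 ran from -0.017 without the first day 3 library to 0.071 without the second, and Sox1 with Gdf11 against day 6 was 0.046 without the first Gdf11 library.

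Same-numbered libraries of 2 groups did not deviate together in all pairs of groups (correlations of deviations over 9520 genes from 0.029 to 0.34, with 3 of 10 below 0.1), and the labels name no shared batch, so the numbers were not taken to pair the samples. All 10 correlations were above 0, and replicate 1 had the higher total and the lower mitochondrial percent in each of the 5 groups. With the replicate block, 2, 2, 3, 3 and 0 sums and 16, 15, 7, 10 and 0 regions were called in the 5 comparisons, in the order of the report, and the Sox3 sum to day 3 became a call (-0.35, adjusted p = 0.0257). Over all genes the block raised the calls from day 6 to day 7 from 681 higher and 129 lower to 1328 and 295. For Gdf11 against day 6 they went from 117 higher and 241 lower to 306 and 697. An effect shared by same-numbered libraries would be left out of the main fit.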

Other observations

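Beyond 50 kb, a further 82 regions between 50 and 200 kb had a SoxB gene as their nearest, of which 53 passed the filter, and Sox21 had none. From day 2 to day 3, 6 of them rose and 6 fell, where 13.2% of all regions were called. A pair of regions far downstream of Sox2 was highest on day 3. Sox2 outer region 22 (chr3:34756603-34757005), at 104142 bp past the gene's end, read 4.29 and 3.79 CPM on day 2, 13.4 and 13.3 on day 3, and 5.67 and 5.75 on day 6. It rose by 1.72 ± 0.29 (edgeR, adjusted p = 8.91e-06) and then fell by 1.23 ± 0.27 (adjusted p = 0.000725). Sox2 outer region 26 (chr3:34761154-34761649), at 108693 bp, read 8.57 and 8.24, 16.6 and 16.3, and 5.75 and 7.11 on the same days. Its changes were 0.97 ± 0.24 (adjusted p = 0.00286) and -1.37 ± 0.24 (adjusted p = 2.43e-05). After day 6 the 2 regions read between 3.87 and 8.46 CPM. These outer regions were singled out after their values were seen, and were not refitted under the alternatives.

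On the other side of Sox2, outer region 7 (chr3:34558961-34559480), at 90515 bp before the gene, read 9.59 and 7.39 CPM on day 6, 17.5 and 14.7 on day 7, and 9.20 and 7.97 with Gdf11. Its rise was 0.92 ± 0.23 (adjusted p = 0.0282) and its Gdf11 difference -0.91 ± 0.23 (adjusted p = 0.0114). At Sox1, outer region 9 (chr8:12477755-12478481), at 78200 bp past the end, fell from 25.3 and 22.2 on day 2 to 12.1 and 7.79 on day 3 (-1.22 ± 0.22, adjusted p = 2.72e-05). It read 19.2 and 20.8 on day 7 and 12.9 and 9.90 with Gdf11 (-0.80 ± 0.21, adjusted p = 0.019).

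Near Sox14, outer regions 1 and 7 rose from day 3 to day 6 while the gene's sum fell. Outer region 7 (chr9:99954725-99955069), at 78555 bp before the gene, had 0 counts in both day 2 libraries, 0.849 and 0.144 CPM on day 3, and 2.40 and 3.42 on day 6 (2.29 ± 0.54, adjusted p = 0.00145). Outer region 1 (chr9:99797511-99797836), at 76270 bp past the end, read 1.70 and 0.722 CPM on day 3, 6.95 and 4.51 on day 6, 6.30 and 6.78 on day 7, and 1.94 and 1.83 with Gdf11. It rose by 2.16 ± 0.42 to day 6 (adjusted p = 0.000111). With Gdf11 it was lower than on day 7 (-1.78 ± 0.39, adjusted p = 0.00244) and than on day 6 (-1.62 ± 0.39, adjusted p = 0.0094). It was the only SoxB region within 200 kb called between Gdf11 and day 6, where 2.4% of all regions were called.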
